A study of Mus musculus with 38 samples.

Results

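Primary mouse embryonic fibroblasts homozygous for a Rela knock-in allele, which the labels call RelA-TA-KI, were compared 3 h after TNF (10 ng/ml) with untreated cells of the same genotype. The comparison holds 4 of the 38 samples of the series, 2 libraries at 3 h and 2 untreated, chosen by their genotype, agent, time and replicate number in the labels. All cells were C57BL/6 fibroblasts starved overnight in medium with 0.5% bovine calf serum, so the overnight starvation is shared by both sides. No untreated library is labelled as kept for the same 3 h, so TNF and elapsed time cannot be told apart. TA is taken to mean transactivation because the series title uses that word. What the allele does to the protein cannot be seen in gene counts. The same 2 time points in wild-type (WT) fibroblasts, again 2 libraries each, served as the reference response. The labels do not say whether replicate numbers mark embryos, cultures or days. In WT the 2 numbers differed in sex-linked genes, as given below. The p-values rest on a spread estimated over all 20 libraries of the TNF time courses, and this spread may be technical.

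TNF binds its receptor on fibroblasts and starts a kinase cascade that destroys the IkB proteins, which hold the NF-kB dimers in the cytoplasm. RelA (p65) is the NF-kB subunit with the strongest transactivation domain and drives genes for chemokines, adhesion molecules and the pathway's own inhibitors. In parallel, TNF activates the MAP kinases that act on AP-1 and on the serum-responsive immediate early genes, and induced genes are later shut off by IkB resynthesis, A20 and mRNA decay factors.

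Promoters of 4 genes are shown because they stand for groups described below: an inhibitor of NF-kB (Nfkbia), an immediate early gene (Btg2), and genes among the largest falls (Prokr1 and Shisa2). Each sequence is the 250 bases before the start of the RefSeq gene on GRCm38.p6, 5′ to 3′ on the gene's strand. Windows are chr12:55492648-55492897 on the minus strand for Nfkbia, chr1:134079156-134079405 on the minus strand for Btg2, chr6:87590744-87590993 on the minus strand for Prokr1 and chr14:59625031-59625280 on the plus strand for Shisa2. Capitals mark matches, on either strand, to a kB site, a CArG box (the site of serum response factor), the AP-1 form TGANTCA, the cyclic AMP response form TGACGTCA or the Egr form GCGTGGGCG.
Nfkbia: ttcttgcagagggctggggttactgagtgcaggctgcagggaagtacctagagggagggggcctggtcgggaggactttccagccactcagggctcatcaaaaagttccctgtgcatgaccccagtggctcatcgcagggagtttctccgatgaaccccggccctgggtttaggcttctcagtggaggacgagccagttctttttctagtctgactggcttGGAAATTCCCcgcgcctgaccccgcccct
Btg2: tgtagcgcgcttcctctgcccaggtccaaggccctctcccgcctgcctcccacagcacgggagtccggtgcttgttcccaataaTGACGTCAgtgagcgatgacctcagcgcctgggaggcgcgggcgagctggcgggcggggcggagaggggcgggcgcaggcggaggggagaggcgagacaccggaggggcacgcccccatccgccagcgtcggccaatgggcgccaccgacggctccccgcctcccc
Prokr1: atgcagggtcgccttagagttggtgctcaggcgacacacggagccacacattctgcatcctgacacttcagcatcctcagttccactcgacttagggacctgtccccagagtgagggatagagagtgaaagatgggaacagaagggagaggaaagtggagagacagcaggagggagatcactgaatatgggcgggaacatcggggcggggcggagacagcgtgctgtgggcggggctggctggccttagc
Shisa2: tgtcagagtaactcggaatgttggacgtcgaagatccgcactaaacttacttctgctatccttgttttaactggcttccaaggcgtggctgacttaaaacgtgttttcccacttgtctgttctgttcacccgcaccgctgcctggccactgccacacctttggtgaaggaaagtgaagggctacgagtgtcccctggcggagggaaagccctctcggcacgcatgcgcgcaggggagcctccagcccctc
Nfkbia had a kB site 29 bases before its start, Btg2 had a TGACGTCA at 166 bases, and the windows of Prokr1 and Shisa2 held none of the 5 motifs. The windows of Junb, a raised immediate early gene, and Tnfaip3, a raised inhibitor, were picked by the same rule but are not printed. That of Junb held none of the 5 motifs. That of Tnfaip3 held kB sites at 125 and 12 bases and a TGANTCA at 136 bases. Over all 32851 RefSeq windows of this length, 3.9% held a kB site, 1.47% a CArG box, 6.75% TGANTCA, 1.55% TGACGTCA and 0.536% GCGTGGGCG. A match is a run of letters and not evidence of binding. Shares were not compared between gene sets, since only 76.5% of the tested genes, 73.2% of those raised at least 2-fold and 74.2% of those lowered at least 2-fold had a window.

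The untreated RelA-TA-KI libraries held 7795402 and 8237160 counts and the 3 h libraries 8396678 and 9107300, in a table whose libraries ranged from 6715022 to 9590932 counts. Replicates correlated at 0.988 (untreated) and 0.989 (3 h) on log2 CPM (counts scaled to library size) across genes, which are not independent replicates. Fibroblast markers summed to 35580 and 38550 CPM untreated and 27580 and 33080 at 3 h. Macrophage markers were present too, at 1859 and 3116 CPM untreated and 1606 and 2690 at 3 h, in each pair of same-numbered libraries lower at 3 h and higher in replicate 2. Muscle markers stood at 107.3 to 236.9 CPM, neural at 126.2 to 173.3, endothelial at 94.2 to 126.7, epithelial at 56.83 to 75.15 and chondrocyte and osteoblast markers at 124.4 to 290.3, and adipocyte-lineage markers at 537.1 to 1014. Of the defining markers only Retn, an adipocyte gene, was at 0 in all 4 libraries. In such bulk samples fewer cells of a type and less RNA per cell cannot be told apart. Xist, the RNA of the inactive X chromosome, was at 394.2 CPM or more in all 4 RelA-TA-KI libraries, but in WT it was at 404.2 and 337.2 in replicate 1 and at 2.319 and 2.472 in replicate 2.

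Rela itself, the targeted gene (chr19:5637483-5648130, plus strand), stood at 69.53 and 67.23 CPM untreated and at 121.5 and 122.3 CPM at 3 h. It rose by 0.83 on the log2 scale (standard error, SE, 0.06; adjusted p = 2.1e-06, edgeR quasi-likelihood test with Benjamini-Hochberg adjustment over 13843 genes, as for all adjusted p-values here). In WT it rose by 1.03, and the difference of the responses was -0.20 (adjusted p = 0.46). The count covers the whole gene and does not read the knock-in change.

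At 3 h of TNF, 2631 of 13843 genes were called against untreated in RelA-TA-KI cells (19.0%), 1513 higher (10.9%) and 1118 lower (8.08%). Most changes were small: the median of the raised genes was 0.44 on the log2 scale and that of the lowered genes -0.63, against -0.01 over all genes tested. At least 2-fold higher were 183 genes (1.32%) and at least 2-fold lower 291 (2.1%). At least 4-fold, 42 genes were raised and 42 lowered, and at least 8-fold 16 were raised and 7 lowered. Unadjusted, 4719 genes (34.1%) had a p under 0.05, and 8884 (64.2%) had groups that did not overlap. With 2 libraries a side, such separation is also common in genes that do not change, so the latter share does not count responding genes.

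The count of calls depends on the fit. With the replicate number as a block over both genotypes, 4627 genes passed (33.4%). With the number as a block within each genotype, 4889 passed (35.3%), 2607 higher (18.8%) and 2282 lower (16.5%). The latter is named below as the blocked fit. Leaving out a library gave 1619 calls without untreated replicate 1, 965 without 3 h replicate 1, 880 without untreated replicate 2 and 1529 without 3 h replicate 2. Upper-quartile scaling called 1097 higher and 1419 lower, and library totals alone 927 higher and 1773 lower, as these scalings moved the median of all genes to -0.06 and -0.09. List counts below also shrink with fewer libraries. They are to be read beside the shares over all genes, 10.9% higher and 8.08% lower, or 18.8% and 16.5% in the blocked fit. Lists with few calls, such as interleukins, matrix genes and receptor kinases, lay near these shares and are given as values only.

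**Figure D1:**
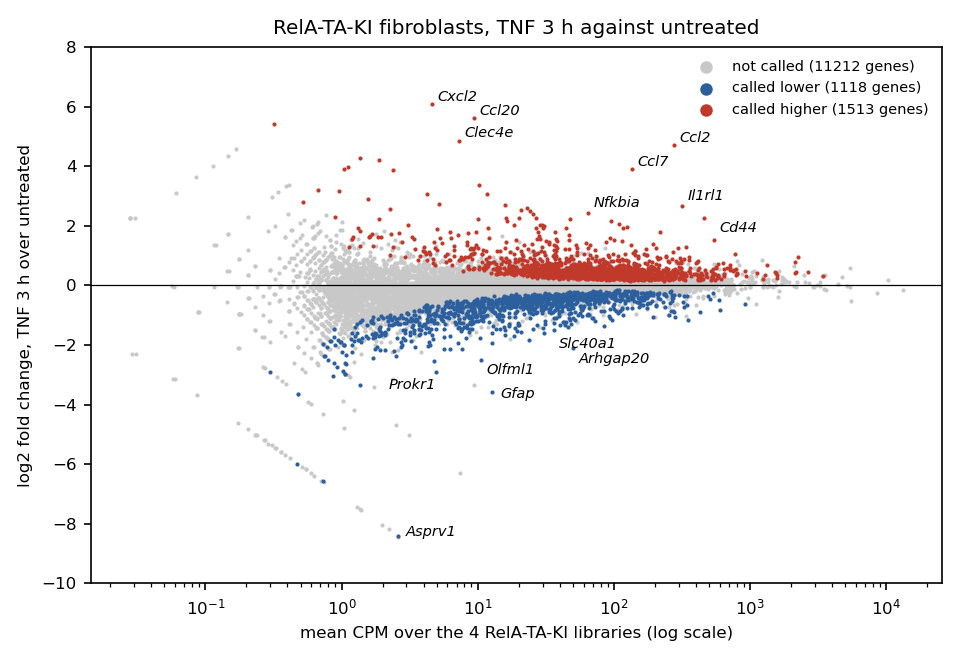
Log2 fold change at 3 h against untreated (vertical axis) by mean level in CPM on a log axis (horizontal axis) for the 13843 genes tested in RelA-TA-KI fibroblasts, with called genes coloured by direction. The 1513 raised and 1118 lowered genes lie mostly within 1 log2 unit of 0, and the highest points are the chemokine genes Cxcl2 (6.08) and Ccl20 (5.63).

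The largest rises were in genes for leukocyte attraction and innate sensing. Ccl20, the ligand of CCR6, went from 0.4914 and 0.2318 CPM to 17.89 and 19.05 (log2 5.63, SE 0.25, adjusted p = 8.5e-09, edgeR). Ccl2, the main monocyte chemokine (chr11:82035571-82037453), went from 22.6 and 18.31 CPM to 476.4 and 584.8 (log2 4.70, SE 0.17, adjusted p = 1.1e-09). Its neighbour Ccl7 (chr11:82045712-82047525) went from 17.93 and 15.76 CPM to 222 and 288.5 (log2 3.92). In all of these genes both 3 h libraries lay far above both untreated libraries.

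Cxcl2, a neutrophil chemokine, rose from 2 counts in the untreated libraries together to 158 at 3 h, a ratio of 72.4 with a 95% counting interval of 19.7 to 603. Traf1, a signalling adaptor of TNF receptors, rose from 3 counts to 62, a ratio of 18.9 (6.18 to 94.3), and Cxcl3 from 2 counts to 16, a ratio of 7.33 (1.72 to 65.7). These intervals cover counting error only. Clec4e, the Mincle receptor for microbial glycolipids, stood at 0.3685 and 0.5796 CPM untreated and at 7.735 and 20.28 at 3 h (log2 4.84, SE 0.95). Gpr84, a receptor for medium-chain fatty acids found on myeloid cells, rose by 3.07 and Acod1, which makes itaconate, by 3.86. At 3 h Clec4e and Acod1 were higher in replicate 2 than in replicate 1, as was the sum of the macrophage markers. Which cells of these cultures carried the rises was not tested. The rise of Acod1 rested on 2.296 and 6.686 CPM at 3 h and did not pass without 3 h replicate 2 (adjusted p = 0.11) or without either untreated replicate.

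The mRNA of TNF itself went from 2.088 and 1.507 CPM to 13.9 and 23.4 (log2 3.37, SE 0.46, adjusted p = 0.00029). Il1rl1, the IL-33 receptor, went from 109.2 and 64.91 CPM to 617.8 and 481.7 (log2 2.66, SE 0.43), replicate 1 being the higher at both times. Fosl1, an AP-1 subunit, and Tnip3, an A20-binding inhibitor of NF-kB, rose by 2.70 and 2.72.

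Of 25 inhibitors and feedback genes of NF-kB tested, 11 rose and 0 fell (2 fell in the blocked fit), with a median of 0.23 (all genes -0.01). Nfkbia, which encodes IkBalpha, stood at 19.04 and 21.33 CPM untreated and at 106.8 and 112.7 at 3 h (log2 2.44, SE 0.12, adjusted p = 1.5e-08, edgeR). Tnfaip3, the deubiquitinase A20, stood at 8.23 and 8.114 CPM and then at 42.54 and 43.23 (log2 2.39, SE 0.17, adjusted p = 1.1e-06). Nfkbie, another IkB, stood at 5.282 and 4.521 CPM and then at 16.68 and 20.95 (log2 1.94). In all of these the replicates lay close together and far from the other time. Bcl3 and Nfkbiz, nuclear IkB proteins, rose by 2.26 and 1.14. The kB site near the start of Nfkbia is the one in capitals above.

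All 5 NF-kB subunit genes rose (median 0.85). Relb, the partner of p52, went from 13.51 and 10.9 CPM to 49.07 and 48.47 (log2 2.00, SE 0.13, adjusted p = 5.6e-07). Nfkb2, the p100 precursor, went from 48.77 and 44.39 CPM to 126.1 and 132.4 (log2 1.47), and Nfkb1, the p105 precursor, rose by 0.85. In the list of TNF receptors and adaptors 8 of 20 rose and 0 fell (median 0.17), the blocked fit called 1 fall, and 5 rose without either untreated replicate or 3 h replicate 2. Map3k14, the kinase NIK of the alternative pathway, went from 10.32 and 12.87 CPM to 46.65 and 48.92 (log2 2.04, SE 0.10, adjusted p = 1.4e-08). Birc3, a ubiquitin ligase of the receptor complex, rose by 1.67 and Traf3, which targets NIK for degradation, by 0.66. Tnfrsf1a, the main TNF receptor of fibroblasts, was at 177.9 and 170.3 CPM untreated and at 151.4 and 159.2 at 3 h (log2 -0.16, adjusted p = 0.11; 0.022 in the blocked fit). Of 8 TNF family ligands 3 rose: Tnf, Tnfsf11 (RANKL, 1.45) and Tnfsf9 (4-1BB ligand, 1.19).

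**Figure D2:**
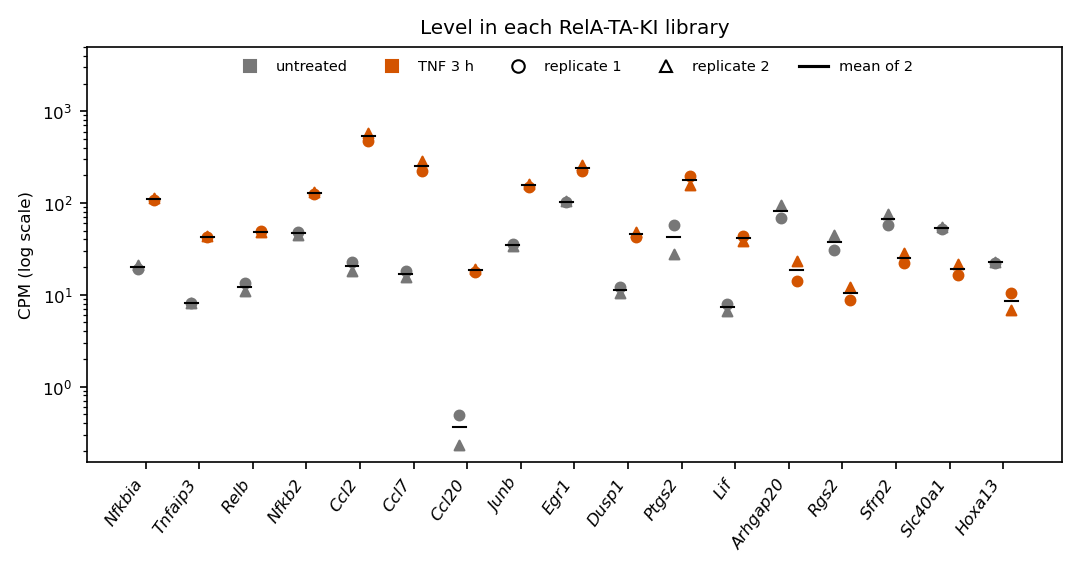
CPM on a log axis in each of the 4 RelA-TA-KI libraries for genes named in the text, untreated against 3 h. Points are libraries, with n = 2 a group, and for genes such as Nfkbia (19.04 and 21.33 against 106.8 and 112.7) the groups are well apart.

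Among 13 CXC chemokines 7 rose and 2 fell (median 1.84, or 1.61 with genes at 0 counts set at their bound). Cxcl10, a T cell chemokine, stood at 6.265 and 6.027 CPM untreated and 28.4 and 43.12 at 3 h (log2 2.54, SE 0.40, adjusted p = 0.00082). Cxcl1, a neutrophil chemokine, stood at 1.965 and 2.898 CPM and then at 19.1 and 22.51 (log2 3.08). Cxcl12, the stromal chemokine that holds CXCR4-bearing cells, fell from 422.8 and 416.8 CPM to 281.4 and 247.6 (log2 -0.67, SE 0.10). It moved against Cxcl1, Cxcl2 and Cxcl10. Of the raised CXC genes, 3 passed without untreated replicate 1, 4 without 3 h replicate 1 and 3 without 3 h replicate 2, and of the falls 1 passed whichever library was left out.

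Of 16 CC and CX3C chemokines 4 rose and 0 fell (median 0.69): Ccl2, Ccl7, Ccl20 and Cx3cl1, the membrane-bound fractalkine (log2 1.07). The blocked fit called 8 of them. Ccl5, a T cell and monocyte chemokine, was at 0.6142 and 1.043 CPM untreated and at 0.846 and 1.114 at 3 h (log2 0.24, adjusted p = 0.82).

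Interleukins and colony-stimulating factors gave 3 of 19 higher and 3 lower (median 0.45), and 5 higher in the blocked fit. Lif, an IL-6 family cytokine, went from 7.985 and 6.723 CPM to 43.75 and 38.33 (log2 2.48, SE 0.23, adjusted p = 1.2e-05). Csf1, the macrophage growth factor, went from 215.2 and 178 CPM to 527.4 and 432.7 (log2 1.29). Il6 was low throughout, at 2.055 and 2.786 CPM at 3 h (log2 1.63), and its call was lost when any of the 4 libraries was left out. Kitl (stem cell factor), Il33 and Il16 fell by 0.98, 1.77 and 1.51 on the log2 scale, and of these falls 1 passed without either untreated replicate or 3 h replicate 1.

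Adhesion molecules rose in 7 of 24 cases and fell in 0 (median 0.37), with 12 higher in the blocked fit and 4 without untreated replicate 2 or 3 h replicate 2. Vcam1, which binds leukocyte integrins, stood at 170.9 and 179.4 CPM and then at 384.1 and 451.8 (log2 1.25, SE 0.16, adjusted p = 0.00018). Icam1 stood at 31.69 and 36.63 CPM and then at 75.53 and 107.6 (log2 1.42), and the hyaluronan receptor Cd44 at 308.2 and 251.2 and then at 856.1 and 761.7 (log2 1.53). Sele, the selectin of inflamed endothelium, was at most 0.9827 CPM untreated and at 2.659 and 5.126 at 3 h (log2 2.55). The fibronectin receptor subunit Itga5 rose by 0.82. In the acute phase and complement list 0 of 17 rose and 1 fell, C1s1 (-0.72), and that call was lost whichever of the 4 libraries was left out, whereas the blocked fit called 1 higher and 5 lower.

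Of 25 pattern recognition receptor genes 7 rose and 1 fell (median -0.01; 9 and 5 in the blocked fit), and the rises came to 3 without untreated replicate 1 and 2 without either replicate 2. Clec4e, Gpr84, Tlr2 (log2 1.45, from 14.37 and 21.44 CPM to 38.19 and 60.06) and Nod1 (0.51) rose. Tlr4, the LPS receptor, fell from 43.24 and 47.87 CPM to 29.01 and 32.76 (log2 -0.56, adjusted p = 0.0032).

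Of 32 immediate early transcription factors 22 rose and 3 fell (median 0.99), and 17 to 21 still rose when 1 RelA-TA-KI library was left out. Junb, an AP-1 subunit, went from 35.5 and 33.85 CPM to 150.5 and 161.9 (log2 2.17, SE 0.10, adjusted p = 8.5e-09, edgeR). Btg2, an antiproliferative early gene, went from 74.57 and 73.84 CPM to 195.1 and 189.8 (log2 1.37, SE 0.08, adjusted p = 8e-08). Egr1 went from 102 and 105.2 CPM to 225.6 and 256.2 (log2 1.22), and Myc from 42.38 and 32.69 to 91.85 and 100.6 (log2 1.36). Jun, Jund, Fos, Atf3, Klf6, Ier3, Maff and Nr4a3 rose as well, by 1.05, 0.92, 1.36, 1.14, 0.81, 2.24, 1.91 and 1.55. Id1 and Id3, inhibitors of bHLH factors and targets of BMP signaling, and Klf2 fell, Id3 from 134.6 and 134 CPM to 63.81 and 56.27 (log2 -1.16). In 27 of the 32 genes (84.4%) the 3 h library was higher in both same-numbered pairs, against 38.6% of all genes.

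The feedback genes of MAP kinases rose alongside: 10 of 19 phosphatase, Sprouty and Nab genes rose and 1 fell (median 0.46), with 6 rises without untreated replicate 2 and 0 falls whichever of the 4 libraries was left out. Dusp1, the phosphatase of p38 and JNK, went from 12.28 and 10.32 CPM to 42.9 and 48.81 (log2 2.02, SE 0.23, adjusted p = 7.9e-05). Errfi1, an inhibitor of EGF receptor, went from 55.89 and 45.67 CPM to 193.1 and 203 (log2 1.96), and Dusp8 and Spry4 rose by 1.51 and 0.91. Of 7 EGF receptor ligands, Hbegf (1.68) and Nrg1 (0.92) rose, but neither passed without 3 h replicate 1 or untreated replicate 2 and 1 passed without untreated replicate 1.

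Growth and angiogenic factors gave 8 of 26 higher and 3 lower (median 0.23), and 13 and 6 in the blocked fit. Pdgfb, a mitogen of mesenchymal cells, went from 5.896 and 6.143 CPM to 24.17 and 29.31 (log2 2.15, SE 0.17, adjusted p = 2.6e-06), and Fgf7, the keratinocyte growth factor, from 34.4 and 33.27 to 71.43 and 75.99 (log2 1.12, SE 0.07, adjusted p = 5.2e-07). Gdf15, a stress-induced cytokine, and Vegfa rose by 1.88 and 0.54. Angpt1, the ligand of Tie2, fell from 47.42 and 44.28 CPM to 22.96 and 24.63 (log2 -0.94). Of the 8 rises 3 passed without 3 h replicate 1 and 4 without either untreated replicate, and of the falls 1 passed without 3 h replicate 1 or untreated replicate 2.

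In the protease and plasminogen list 6 of 23 rose and 4 fell (median 0.14), against 2 and 2 without 3 h replicate 1 or untreated replicate 2. Plaur, the urokinase receptor, went from 12.9 and 11.94 CPM to 44.23 and 42.12 (log2 1.80, SE 0.26, adjusted p = 0.00046). Timp1 rose by 1.01 and Plat by 0.52, and Adamts1 and Adamts5, which cleave proteoglycans, fell by 0.55 and 0.59. Mmp3, stromelysin, was at 7.125 and 5.564 CPM untreated and at 6.647 and 7.243 at 3 h (log2 0.14, adjusted p = 0.64). Ptgs2, the inducible cyclooxygenase, went from 56.88 and 27.59 CPM to 197.6 and 156.6 (log2 2.07, SE 0.51, adjusted p = 0.013), with replicate 1 the higher at both times, and lost its call without 3 h replicate 1 or untreated replicate 2. Hpgd, which inactivates prostaglandins, fell from 20.15 and 35.01 CPM to 7.614 and 12.59 (log2 -1.44, SE 0.33, adjusted p = 0.0083).

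Of 13 mRNA decay factors 8 rose and 0 fell (median 0.43), and 5 rose without either untreated replicate or 3 h replicate 2. Zfp36, tristetraprolin, went from 18.92 and 18.43 CPM to 40.24 and 57.05 (log2 1.38, SE 0.16, adjusted p = 7.9e-05). Zc3h12a, the endonuclease Regnase-1, went from 5.651 and 5.448 CPM to 13.29 and 13.26 (log2 1.26). Of 19 p53 target and Gadd45 genes 9 rose and 1 fell (median 0.37), but 4 rose and 0 fell without 3 h replicate 1 or untreated replicate 2. Mdm2, the p53 inhibitor, rose by 1.13, Cdkn1a by 0.63, Plk3 by 1.14 and Gadd45b by 0.88. Of 20 antioxidant and metal genes 10 rose and 2 fell (median 0.28). The rises came to 5 without 3 h replicate 1 or untreated replicate 2 and 6 without 3 h replicate 2, and the falls to 1 whichever of the 4 libraries was left out. Among the raised were Srxn1 (0.78), Txnrd1 (0.84), Mt1 (0.51) and Sod2 (0.56). Slc40a1, the iron exporter ferroportin, fell from 52.58 and 54.36 CPM to 16.32 and 21.62 (log2 -1.49, SE 0.23, adjusted p = 0.00074).

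STAT3 and SOCS feedback genes gave 4 of 19 higher and 1 lower (median 0.23), and 8 and 4 in the blocked fit. Without either untreated replicate or 3 h replicate 2 there were 2 rises, and the fall was lost whichever of the 4 libraries was left out. Pim1, a survival kinase, rose by 1.01 and Cebpb by 0.88, and the LIF receptor gene Lifr fell by 0.63. In the cell death list 7 of 24 rose and 4 fell (median 0.19), 11 rose in the blocked fit, and 1 fell without either untreated replicate or 3 h replicate 1 and 2 without 3 h replicate 2. Bid, the BH3 protein cleaved by caspase-8, rose by 0.99, the death receptor Fas by 0.67, and Cflar, the caspase-8 inhibitor cFLIP, by 0.61. Cflar stood at 85.01 and 91.69 CPM untreated and at 123.9 and 145.3 at 3 h.

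Several lists of growth and metabolism had more rises than falls. Ribosome biogenesis had 16 of 24 higher and 0 lower (median 0.52), for example Gnl3, nucleostemin, from 64.12 and 60.85 CPM to 107.2 and 103.6 (log2 0.75, SE 0.08, adjusted p = 3.5e-05). With library totals as the scaling 15 rose and 1 fell, while 8 rose without untreated replicate 2 and 9 without 3 h replicate 1. Cholesterol synthesis and uptake had 9 of 24 higher (median 0.50), glycolysis 6 of 18 higher and 2 lower (median 0.47), heat shock proteins 6 of 15 higher (median 0.34) and contractile and serum response factor targets 5 of 24 higher (median 0.56). In the blocked fit the raised members came to 19, 15, 13 and 19 in that order. Without untreated replicate 2 they came to 0, 1, 1 and 0, and without 3 h replicate 1 to 0, 1, 2 and 1. The 2 falls in glycolysis came to 1 without either replicate 1 and to 0 without either replicate 2, and the blocked fit called 1 fall in the cholesterol list.

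Levels in these lists differed between replicates before and after TNF. Acta2, smooth muscle actin, stood at 1831 and 1247 CPM untreated and at 3368 and 2517 at 3 h (log2 0.94, SE 0.27, adjusted p = 0.027, 4.9e-08 in the blocked fit). Zyx, a focal adhesion protein, stood at 331.4 and 274.3 CPM and then at 563.8 and 503.7 (log2 0.82). In both genes replicate 1 was above replicate 2 at both times, and the groups did not overlap. Hk2 and Pfkfb3, which raise glycolytic flux, rose by 1.19 and 1.03.

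Genes for receptors and signaling proteins were among the 12 largest falls. Prokr1, a prokineticin receptor, went from 7.739 and 9.621 CPM to 0.9668 and 1.337 (log2 -2.89, SE 0.37, adjusted p = 0.00018). Arhgap20, a GTPase-activating protein, went from 67.81 and 94.35 CPM to 14.26 and 23.29 (log2 -2.11, SE 0.32, adjusted p = 0.00071). Shisa2, an inhibitor of FGF and Wnt receptor maturation, went from 11.18 and 9.389 CPM to 2.538 and 2.117 (log2 -2.14, SE 0.24, adjusted p = 8e-05). Prlr, the prolactin receptor, fell by 2.13, Ppp1r3c, which directs glycogen synthesis, by 2.55, Olfml1 by 2.52 and Zfp784 by 2.36. Bmf, a BH3 protein, and March1, a membrane ubiquitin ligase, fell by 2.12 and 2.20, Bmf with a call lost without untreated replicate 1 (adjusted p = 0.062) or 3 h replicate 2 (0.1).

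Asprv1 and Gfap were also among the 12 largest falls. Asprv1, a skin protease, had 86 counts in the untreated libraries and 0 at 3 h, at least 31.3-fold lower against a floor of 3 counts over the group, and its call was lost when any of the 4 libraries was left out. Gfap, a filament protein of glia, stood at 41.77 and 5.564 CPM untreated and at 0.9668 and 2.897 at 3 h (log2 -3.57, adjusted p = 0.046). Without untreated replicate 1 its value was -1.49 (adjusted p = 0.5).

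Falls were frequent among regulators of patterning. Of 27 Wnt signaling genes 12 fell and 2 rose (median -0.43), and the falls came to 4 without 3 h replicate 1, 5 without untreated replicate 2 and 5 without 3 h replicate 2. The rises came to 1 without untreated replicate 2, to 0 without 3 h replicate 1 and to 4 in the blocked fit. Sfrp2, a secreted Wnt modulator, went from 57.24 and 75.46 CPM to 22 and 28.64 (log2 -1.39, SE 0.26, adjusted p = 0.0029). The Wnt receptor gene Fzd4 went from 36.24 and 42.31 CPM to 18.37 and 22.4 (log2 -0.94), and Rspo3, a Wnt amplifier, from 59.21 and 66.19 to 34.69 and 30.53 (log2 -0.94). Wnt5b, Nkd1 and Sfrp1 fell by 1.57, 1.08 and 0.85, and Lef1 rose by 1.29. In 77.8% of this list the 3 h library was lower in both same-numbered pairs, against 39.7% of all genes.

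Of 28 homeobox and limb patterning factors 8 fell and 0 rose (median -0.24), against 14 and 2 in the blocked fit, with 4 falls without 3 h replicate 1 and 5 without either replicate 2. Hoxa13, which patterns the distal limb, went from 22.23 and 22.72 CPM to 10.51 and 6.797 (log2 -1.38, SE 0.16, adjusted p = 0.00011). Osr2 and Osr1, odd-skipped factors of the limb mesenchyme, fell by 1.48 and 0.60, and Twist1 by 0.47. Of 16 Notch genes 3 fell (Hey1, Maml2 and Notch3), of which 0 or 1 passed with any of the 4 libraries left out and the blocked fit called 5, and Rbpj rose by 0.60. TGF-beta and BMP genes split, 5 of 26 higher and 6 lower (9 and 7 in the blocked fit), with a median of 0.06 (-0.03 under library totals). Smurf1, a ubiquitin ligase for Smads, went from 101.5 and 87.28 CPM to 189.9 and 189.6 (log2 1.01), while the BMP pseudoreceptor Bambi went from 14.74 and 15.18 to 7.01 and 6.797 (log2 -1.11). Bmp4 and the inhibitory Smad6 fell by 0.85 and 0.92, and the activin gene Inhba rose by 1.52. The BMP antagonist Grem1 rose from 104.4 and 75 CPM to 221.9 and 175.1.

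Of 12 RGS genes, whose proteins end G protein signals, 2 rose and 1 fell (median 0.04, or -0.04 under library totals), and 1 rose whichever of the 4 libraries was left out. Rgs16 went from 8.108 and 5.912 CPM to 31.18 and 35.43 (log2 2.25, SE 0.23, adjusted p = 4.1e-05), whereas Rgs2 went from 30.34 and 44.39 to 8.702 and 12.15 (log2 -1.84, SE 0.24, adjusted p = 0.00024). Among 18 clock genes 4 rose and 4 fell, with 2 rises and 1 fall without untreated replicate 2, 2 and 2 without either 3 h replicate, and 2 falls without untreated replicate 1. Bhlhe40 (1.1) and Arntl (0.73) were among the raised, and the PAR-domain factors Dbp (-0.93), Tef (-0.47) and Hlf (-1.13) among the lowered. Matrix genes gave 5 of 27 higher and 1 lower (median -0.01), the blocked fit called 7 higher and 11 lower, and the fall was lost without 3 h replicate 1 or untreated replicate 2. Tnc, tenascin C, rose from 1669 and 1450 CPM to 2752 and 2642 (log2 0.79, SE 0.10), and Eln, elastin, fell from 353.5 and 408 to 151.2 and 213.4 (log2 -1.06).

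**Figure D3:**
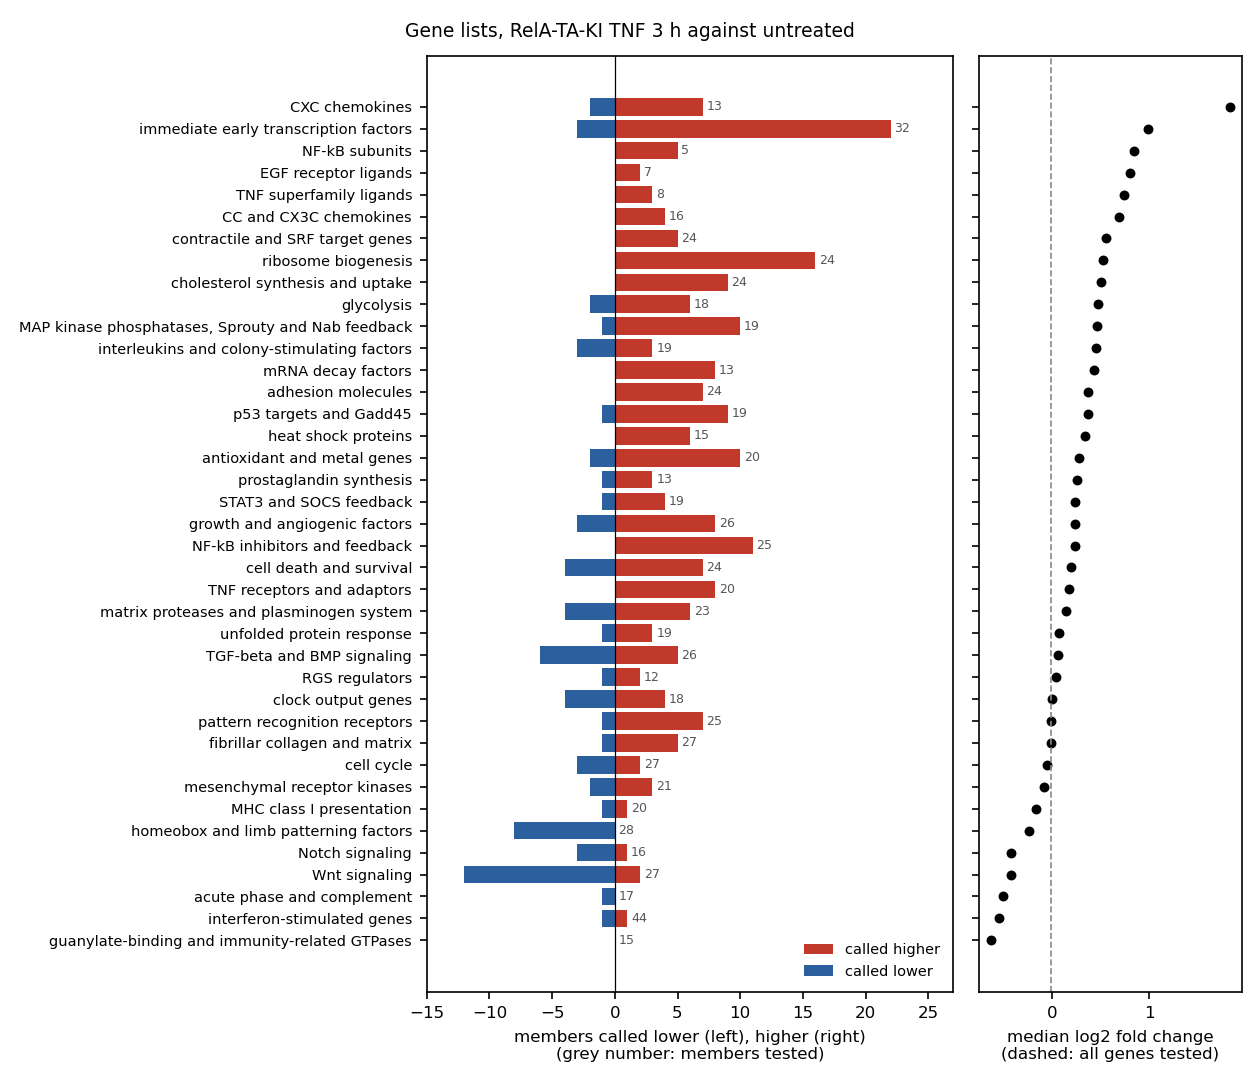
Gene lists at 3 h in RelA-TA-KI fibroblasts, 1 row a list, with bars for the number of members called higher (right) and lower (left), grey numbers for the members tested, and points in the right panel for the list's median log2 fold change beside a dashed line for all genes tested. The medians of NF-kB subunits (0.85), CXC chemokines (1.84) and immediate early factors (0.99) lie to the right of 0, and interferon-stimulated genes (-0.55) and guanylate-binding and immunity-related GTPases (-0.64) to the left.

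Interferon-stimulated genes, which TNF can raise through interferon beta and IRF1, stood lower at 3 h in most cases without passing the test. Of 44 tested, 1 rose (Irf1) and 1 fell (Samd9l, lost whichever of the 4 libraries was left out), with a median of -0.55 (all genes -0.01), and the blocked fit called 2 higher and 31 lower. In 35 of the 44 (79.5%) the 3 h library was the lower in both same-numbered pairs, against 39.7% of all genes, and the median was -0.85 in pair 1 and -0.37 in pair 2. Isg15, a ubiquitin-like antiviral protein, was at 51.72 and 45.79 CPM untreated and at 14.99 and 28.3 at 3 h (log2 -1.16, adjusted p = 0.19, 0.00015 in the blocked fit). Its 3 h libraries lay below the untreated ones and apart from each other. Irf1, a transcription factor and early target of NF-kB, went from 25.06 and 27.24 CPM to 58.37 and 64.52 (log2 1.23, SE 0.17, adjusted p = 0.00035).

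The guanylate-binding and immunity-related GTPases, which act against intracellular microbes, had 0 of 15 called by edgeR and 0 by DESeq2 (2 with an unadjusted edgeR p under 0.05), and a median of -0.64, with 6 lower in the blocked fit. Gbp2 was at 20.88 and 23.76 CPM untreated and at 17.52 and 24.63 at 3 h (log2 -0.08, adjusted p = 0.89). MHC class I presentation had 1 of 20 higher (Calr, 0.44) and 1 lower (Tap1, -0.59), with 3 lower in the blocked fit. Calr lost its call without 3 h replicate 1 or untreated replicate 2, and Tap1 without these or untreated replicate 1. Over all genes tested, 39.7% were lower in both pairs and 38.6% higher. Of 20 macrophage markers 16 were lower in both pairs and 3 higher, with a median of -0.18. The fit called 1 of them higher and 0 lower, and the blocked fit 2 and 8. Lyz2, the myeloid lysozyme, was at 454.6 and 765.7 CPM untreated and at 476.8 and 781.6 at 3 h. Of 12 fibroblast markers 9 were lower in both pairs and 3 higher, with a median of -0.23. Lower in both pairs were 7 of 11 neural, 6 of 10 epithelial and 6 of 10 chondrocyte and osteoblast markers. Higher in both pairs were 2, 2 and 0 in that order. Of 12 muscle markers 3 were lower in both pairs and 2 higher, of 10 endothelial markers 5 and 1, and of 7 adipocyte-lineage markers 4 and 2. The part of the macrophage or other markers in the values of the interferon genes was not tested.

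**Figure D4:**
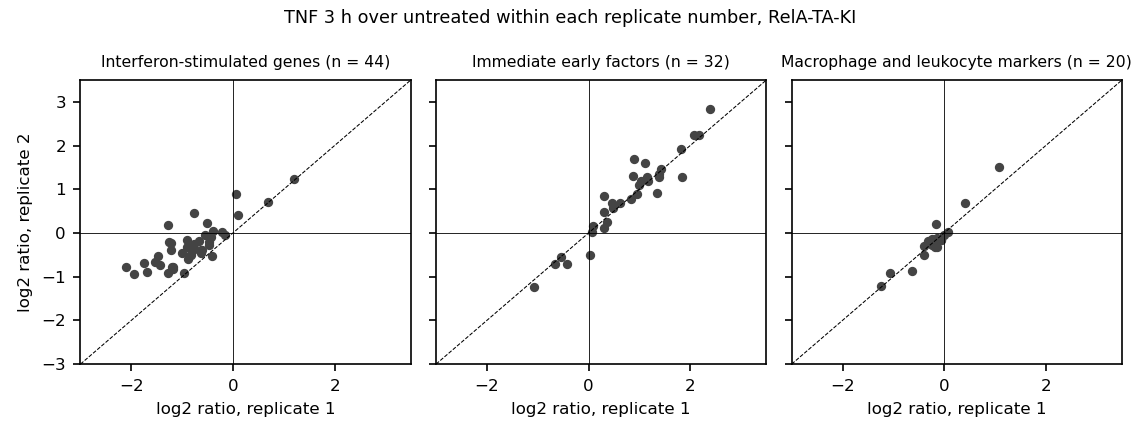
Log2 ratios of 3 h to untreated within replicate 1 (horizontal axis) and within replicate 2 (vertical axis) of RelA-TA-KI fibroblasts, each point a gene, in 1 panel each for interferon-stimulated genes, immediate early factors and macrophage and leukocyte markers. Immediate early genes lie mostly above 0 in both pairs (27 of 32), and interferon-stimulated genes mostly below 0 in both (35 of 44).

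The WT response at 3 h comprised 2171 genes (15.7%), 1290 higher (9.32%) and 881 lower (6.36%), and shares no library with the RelA-TA-KI response. Raised in both were 729 genes, 48.2% of those raised in RelA-TA-KI and 56.5% of those raised in WT. Lowered in both were 475, which is 42.5% and 53.9%. Sign was shared more widely, since 1414 of the 1513 genes raised in RelA-TA-KI were also above 0 in WT and 1035 of the 1118 lowered were below 0. The difference of the responses itself passed the test in 129 genes (0.932%), 28 more positive (0.202%) and 101 more negative (0.73%) in RelA-TA-KI. The blocked fit gave 1035. Without replicate 1 the count was 66 (WT untreated), 180 (WT 3 h), 76 (RelA-TA-KI untreated) or 52 (RelA-TA-KI 3 h), and without replicate 2 it was 93, 50, 61 or 69 in the same order.

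Among genes that rose in RelA-TA-KI, 39 had a smaller rise than in WT and 21 a more positive response. The NF-kB inhibitors stood among the first: Nfkbia rose by 4.15 in WT and the difference was -1.71 (SE 0.17, adjusted p = 0.00011), with WT libraries at 22.92 and 18.76 CPM and then at 356.7 and 377.7. Tnfaip3 rose by 4.31 in WT (difference -1.92), Nfkbie by 4.78 (-2.84), Ripk2, a kinase of NOD signaling, by 3.8 (-2.73), Icam1 by 3.99 (-2.56), Vcam1 by 2.98 (-1.72), Cx3cl1 by 3.57 (-2.50), Fas by 2.56 (-1.89) and Irf1 by 3.09 (-1.86). Of the 25 inhibitors and feedback genes, 5 had a called difference and all 5 were negative, as were 3 of the 5 subunits. Some of the largest RelA-TA-KI rises gave no call for a difference in the fit without a block: Ccl2 rose by 5.30 in WT (difference -0.60, adjusted p = 0.29, but 0.011 in the blocked fit), Ccl7 by 3.92 (adjusted p = 1.0) and Tnf by 3.54 (adjusted p = 0.97). These misses do not show equal responses, as the SE of the difference for Ccl2 was 0.21.

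Genes not called in RelA-TA-KI made up 53 of the 101 negative differences. Ccl5 rose by 6.29 in WT (difference -6.06, adjusted p = 0.0021), Gbp2 by 3.83 (-3.91, adjusted p = 0.0005) and Mmp3 by 2.74 (-2.60, adjusted p = 5.6e-05). Of the 44 interferon-stimulated genes 6 had a negative difference, and of the 15 GTPases 6.

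In the opposite direction stood the immediate early genes. Their WT median was 0.05 with 12 higher and 4 lower, and 10 of the 32 had a positive difference. Egr1 was at 101.4 and 108.8 CPM in untreated WT and at 107.3 and 89.4 at 3 h, which is a difference of 1.32 (SE 0.20, adjusted p = 0.0041) to its RelA-TA-KI rise. Egr2 and Egr3 differed by 1.64 and 1.97, Jund by 0.71, Junb by 0.62 and Jun by 0.55, of which Junb and Jun lost the call in most fits that left out a library. Dusp1 differed by 1.72, Spry2 by 1.01 and Map3k14 by 1.47 (SE 0.14, adjusted p = 0.00011). Map3k14 had risen by only 0.57 in WT, from 13.78 and 12.4 CPM to 19.02 and 19.56.

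Called in opposite directions were 11 genes. Nr4a1, Spry2, Mxra7 and Timp3 rose in RelA-TA-KI and fell in WT, while Mb21d2, Samd9l, A4galt, Enpp2, Nr3c2 and Endou were among those that fell in RelA-TA-KI and rose in WT. Nr3c2, the mineralocorticoid receptor, had the clearest contrast, from 4.545 and 5.1 CPM to 1.692 and 1.337 in RelA-TA-KI (log2 -1.67) and from 2.756 and 4.236 to 19.17 and 31.16 in WT (log2 2.82), a difference of -4.49 (SE 0.47, adjusted p = 0.00022). Nr4a1, an orphan nuclear receptor of the early response, was at 14.5 and 12.4 CPM and then at 18.01 and 22.84 in RelA-TA-KI, and at 14.65 and 14.93 and then at 6.783 and 5.158 in WT (difference 1.94, SE 0.21, adjusted p = 0.00025). Both of these differences passed in all fits that left out a library, whereas the RelA-TA-KI calls of A4galt, Samd9l, Timp3, Mb21d2 and Mxra7 were lost when any of its 4 libraries was left out.

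**Figure D5:**
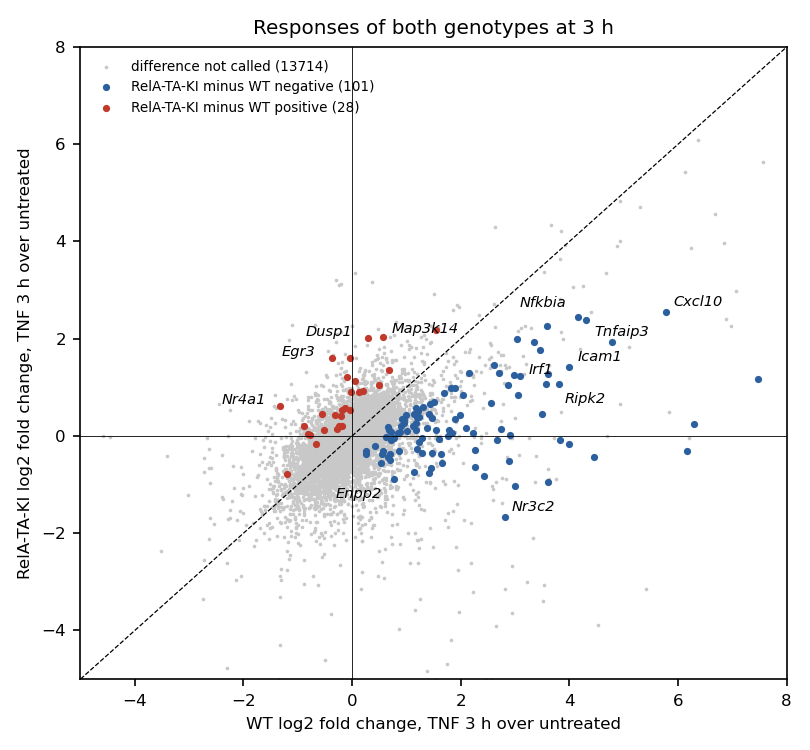
Log2 fold change at 3 h in RelA-TA-KI (vertical axis) against WT (horizontal axis) fibroblasts for the genes tested, with the 129 genes whose responses differed coloured by direction; 35 genes lie outside the axes. NF-kB inhibitors such as Nfkbia (2.44 against 4.15) lie below the diagonal and Egr1 (1.22 against -0.10) above it.

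The other RelA-TA-KI times share the untreated libraries with 3 h, so the values are given side by side only. Nfkbia stood at log2 0.62, 1.66, 2.44 and 3.08 at 0.5, 1, 3 and 8 h, and Ccl2 at 1.26, 2.40, 4.70 and 5.96. Egr1 stood at 3.08, 0.94, 1.22 and 0.92 and Nr4a1 at 4.02, 4.0, 0.61 and 1.13. Cxcl2 stood at 6.25, 3.45, 6.08 and 6.80, Shisa2 at -0.30, -0.33, -2.14 and -2.35 and Hoxa13 at -0.51, -1.14, -1.38 and -2.51. For Egr1 and Nr4a1 the 3 h value lay below that at 0.5 h, and for Nfkbia, Ccl2, Shisa2 and Hoxa13 it lay between those at 1 and 8 h.

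Libraries of RelA-TA-KI cells given LPS or Poly(I:C), which engage Toll-like receptors, stand in a separate table with 1 library per condition, so that no test is possible. At 3 h against that table's own untreated library, Ccl2 had a log2 ratio of 7.96 with LPS and 6.38 with Poly(I:C), Nfkbia 3.99 and 2.03, Junb 3.60 and 2.36 and Irf1 4.57 and 4.72. Irgm1 had 5.19 and 4.73, where TNF gave 0.07 (adjusted p = 0.77). Arhgap20 had -2.18 and -1.87 beside -2.11 with TNF, and Prokr1 -3.0 and -1.27 beside -2.89. Map3k14 had 0.99 and 0.82 beside 2.04, and Pdgfb -0.49 and -1.39 beside 2.15. The cells of that table differed in sex-linked genes: its untreated, LPS and Poly(I:C) libraries had the Y-linked Ddx3y at 131.3, 182.8 and 161.6 CPM and Xist at 0.6878, 0.5708 and 0.464 CPM, while the 4 TNF and untreated libraries had Ddx3y at no more than 0.6142 CPM. The part of this in the values was not tested.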

How the data were processed

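Per the submitters' processing notes, reads were trimmed with cutadapt 1.9.1, aligned to mm10 with STAR and counted with featureCounts 1.4.6. DESeq2 is named there too. The authors deposited these as unnormalized whole-number counts by gene (45706 identifiers, 45143 with a symbol), and 0 columns were left out here. The annotation release and the strand setting are not given in the sources used here.

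Counts of all 20 TNF libraries (10 groups of 2) were fitted here with edgeR 4.0.16 in R 4.3.3: TMM scaling, filterByExpr (13843 genes kept), a mean per group, and the quasi-likelihood F test on 10 residual degrees of freedom. Adjustment was by Benjamini-Hochberg, over all genes tested and with a threshold of 0.05. The biological coefficient of variation was 10.2%. Each standard error was computed as |log2 fold change| over the root of its F statistic, which carries no meaning for changes near 0. CPM values are TMM-scaled. On simulated counts for this comparison, run on the 13843 genes, the test recovered 87% of genes changed by a log2 of 1 and 100% of those changed by 2. The changed genes were drawn only from those above a count floor. All genes were given the same common spread, and no effect of the replicate number was simulated. These shares therefore do not describe genes with few counts or with a larger spread.

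Deviations of same-numbered libraries from their group means correlated at 0.161 to 0.37 within RelA-TA-KI (10 pairs of groups), at 0.161 to 0.529 within WT (10) and at 0.006 to 0.338 across genotypes (25). The ranges within and across genotypes overlap. Pairing libraries within a genotype was a choice, and calls and adjusted p-values come from the fit without a block unless stated. The blocked fit is given beside some of the results it changes, not all. For example, it called 16 Wnt falls, 9 CXC chemokine rises and 19 ribosome biogenesis rises, against 12, 7 and 16 without the block.

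Members, gene lists and tests were chosen with earlier results of these data known. Named genes are the 12 largest called rises and falls averaging 20 counts or more with groups that did not overlap, up to 4 called members of each list by p, the largest differences of responses, and genes called in opposite directions. Other list members named in the text were chosen after their values were seen. A few genes that this rule names are not reported here. Alternatives were blocks, DESeq2 1.42.0, other scalings and filters, a fit to the groups compared only, and leaving out each library.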

Additional observations from a re-analysis of the deposited data

Results flagged for a closer look

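A total of 40 named genes stood out because their response to TNF at 3 h differed between RelA-TA-KI and WT cells in the test of the difference itself. Values are the RelA-TA-KI log2 response minus the WT log2 response, from the edgeR fit. Below 0, RelA-TA-KI cells rose less or fell more than WT cells.

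Among NF-kB subunits, inhibitors and receptor-proximal genes the differences were negative for Nfkb1 (-1.19), Nfkb2 (-1.14), Relb (-1.03), Nfkbia (-1.71), Nfkbie (-2.84), Tnfaip3 (-1.92), Traf3 (-0.77) and Ripk2 (-2.73), and positive for Map3k14 (1.47). Secreted and surface immune genes were all negative among those named here: Cxcl10 (-3.22), Cx3cl1 (-2.50), Csf1 (-1.42), Icam1 (-2.56), Vcam1 (-1.72), Il15ra (-2.33) and Fas (-1.89). The same sign held for Irf1 (-1.86), Samd9l (-1.20), Bid (-0.84), Gadd45b (-0.82) and Rnd1 (-1.70).

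Early response genes and their feedback genes had positive differences: Egr1 (1.32), Egr2 (1.64), Egr3 (1.97), Jun (0.55), Junb (0.62), Jund (0.71), Nr4a1 (1.94), Csrnp1 (1.08), Dusp1 (1.72), Spry2 (1.01) and Spry4 (0.78). Tubb3 (0.93), Mxra7 (0.45) and Timp3 (0.38) were positive too. The remaining genes called in opposite directions were A4galt (-1.88), Enpp2 (-1.66), Mb21d2 (-1.07), Nr3c2 (-4.49) and Endou (-10.29). The value of Endou depends on the prior count: it had 16 counts in untreated RelA-TA-KI libraries and 0 at 3 h, at least 5.82-fold lower. WT replicate 2 differed from WT replicate 1 and the 4 RelA-TA-KI libraries in Xist and Ddx3y (Ddx3y at 144.6 and 160.3 CPM there and at most 0.6142 in the 4 RelA-TA-KI libraries), and the part of this in the differences was not tested.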

How the results depend on the processing

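No called response or called difference of a named gene changed sign under the alternatives run. The TGF-beta and BMP median went from 0.06 to -0.03 with library totals, the RGS median from 0.04 to -0.04 and the clock median from 0.00 to -0.09. More genes were called higher than lower as reported, but fewer with upper-quartile scaling (1097 against 1419) and with library totals. With the replicate number as a block over both genotypes, the RelA-TA-KI response had 4627 calls (2469 higher, 2158 lower) and the difference of responses 774 (370 higher, 404 lower). With the block within genotype these were 4889 (2607, 2282) and 1035 (511, 524). DESeq2 called 723 genes lower, and library totals as the scaling 927 higher and 1773 lower. Without a filter on low counts the difference of responses had 696 calls (249, 447), and in a fit of only the 4 groups compared 44 (7, 37). The cause was not tested. Leaving out 1 library at a time gave 880 to 1619 calls for the response (523 to 962 higher, 332 to 657 lower) and 50 to 180 for the difference (8 to 41 higher, 40 to 139 lower), with fewer samples in each fit. A group left with 1 library is assumed there to vary like the other groups. Of the 182 named genes called in RelA-TA-KI, 182 kept their call with either block, 176 with DESeq2, 178 with upper-quartile scaling, 174 in the fit of only the groups compared, and 126 to 150 with 1 RelA-TA-KI library left out. Differences of genes with few counts, such as Asprv1 and Endou, are limited by depth.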

Other observations

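Families defined by gene name, which were not among the lists, gave further values for RelA-TA-KI cells at 3 h. Proteasome subunits (Psm) had 14 of 38 higher and 0 lower (median 0.21), with 23 higher in the blocked fit, and 10 higher in WT. Numbered zinc finger genes (Zfp) had 12 of 351 higher and 36 lower (median -0.14, and 23 and 55 in the blocked fit), while WT had 21 higher and 16 lower. Over all 13843 genes, 10.9% were called higher and 8.08% lower, with 18.8% and 16.5% in the blocked fit and 9.32% and 6.36% in WT. The zinc finger falls lay near these shares, and the rises lay below them in both fits and in WT, which was not tested. Aminoacyl-tRNA synthetases had 5 of 17 higher and 0 lower. Ribosomal protein genes had 2 of 74 higher and 1 lower (8 and 3 in the blocked fit), and mitochondrially encoded genes 0 of 9 called by edgeR (1 in the blocked fit).

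Gene structure is given as values only, without a test. The median summed exon length was 3997 bases for raised genes, 4911 for lowered genes and 3948 for all tested, and the median gene span was 23.4, 38.9 and 23.6 kb. The 42 genes raised at least 4-fold had a median span of 8.84 kb and a median untreated level of 2.97 CPM, and the 42 lowered at least 4-fold 22.3 kb and 2.24 CPM.

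Rnd1, a GTP-binding protein that lowers contractility, went from 4.299 and 3.361 CPM to 12.09 and 13.93 (log2 1.77, SE 0.17, adjusted p = 1.6e-05, edgeR). Cdc42ep3, an effector of Cdc42, went from 58.35 and 70.59 CPM to 29.85 and 30.09 (log2 -1.11, SE 0.15, adjusted p = 0.00028). Receptor kinases of mesenchymal cells (3 of 21 higher and 2 lower, 6 and 7 in the blocked fit) gave Flt1 (1.02) and Ddr1 (0.53) among 3 rises and Egfr (-0.52) and Fgfr2 (-0.68) as the falls, and 0 of the rises passed without 3 h replicate 1 or untreated replicate 2. Comp, a cartilage matrix protein, fell from 11.3 and 11.36 CPM to 3.142 and 2.786 (log2 -1.93, SE 0.32, adjusted p = 0.001).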
